A study of Homo sapiens with 12 samples.

Results

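Cytosolic ribosomal proteins are the protein part of the ribosome that translates nuclear messages, and their genes were taken here as 83 of the 26499 gene symbols counted, 49 of the large subunit (RPL and RPLP symbols) and 34 of the small subunit (RPS symbols and RPSA). The rule took every symbol of the form RPL or RPS with a number and at most 1 closing letter or Y number, together with RPLP0, RPLP1, RPLP2 and RPSA, and left out pseudogenes and the RPS6K kinases. Of the 83, 2 are Y-linked and were set aside from all counts and values that follow, except that their reads are part of the summed shares. RPL3L and RPL10L, copies with restricted expression, did not pass the filter on low counts, with 0 to 2 reads over a whole group of 3 libraries for RPL3L and 0 to 16 for RPL10L. The other 79, 47 of the large and 32 of the small subunit, passed the filter and are described below.

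The series profiled mRNA of 2 established melanoma cell lines of human origin, A375 and SKMel28, each in a vemurafenib-resistant and a sensitive form, with 3 libraries in each of the 4 groups. Vemurafenib inhibits mutant BRAF, and the series was designed around the IGF1 pathway in resistance to inhibitors of BRAF and MEK. Cells of both resistant groups were cultured with vemurafenib at 1 µmol/L, while the labels name no drug for the A375 sensitive and SKMel28 sensitive cells, so resistance and the presence of drug cannot be told apart. All groups grew in DMEM with 10% fetal bovine serum, and the libraries were poly(A)-selected. No label tells if libraries of 1 group are separate cultures, or if a resistant line is 1 clone, so p-values measure the spread between libraries, which may be technical.

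Between 28496518 and 37721363 reads per library were assigned to genes. Melanocyte lineage markers were at 1 CPM or more for 1 of 8 genes in resistant A375 and 3 of 8 in sensitive A375, so most of them were low or absent in that line, against 8 of 8 in both groups of SKMel28. Their summed level was 31.3 to 33.7 CPM in resistant and 373.0 to 383.0 CPM in sensitive A375, and 10900.0 to 11100.0 CPM in resistant and 7270.0 to 7710.0 CPM in sensitive SKMel28, so it was lower in resistant A375 and higher in resistant SKMel28. Summed markers of other cell types were lower in resistant cells of both lines. Keratinocyte markers stood at 83.3 to 93.7 CPM in resistant and 120.0 to 124.0 CPM in sensitive A375, and at 28.1 to 33.6 CPM in resistant and 66.4 to 70.4 CPM in sensitive SKMel28. Fibroblast markers stood at 4.99 to 5.03 CPM in resistant and 9.22 to 10.2 CPM in sensitive A375, and at 17.4 to 20.9 CPM in resistant and 26.6 to 26.9 CPM in sensitive SKMel28. Leukocyte markers reached at most 2.66 CPM in resistant and 9.68 CPM in sensitive A375, and 0.204 CPM in resistant and 1.98 CPM in sensitive SKMel28, and endothelial markers at most 3.38, 6.07, 2.12 and 6.5 CPM in the same groups. Markers of red blood cells stayed at 0.122 CPM or less. These lists moved with the groups compared below, and their part in the results was not tested. Levels are CPM values, the usual depth-scaled read counts, scaled by edgeR's TMM factors, changes are log2 fold changes of resistant over sensitive cells with standard errors (SE), and a gene was called at an adjusted p below 0.05 over all 15506 genes tested.

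Each ribosome carries 1 copy of nearly every one of these proteins, and cells usually make them in step. Most of their mRNAs begin with a cytosine followed by a run of pyrimidines, the terminal oligopyrimidine (TOP) motif, through which the growth kinase mTOR and the RNA-binding protein LARP1 control their translation and stability. Growth factor signalling, including the MAPK pathway that BRAF drives, and MYC are known to raise ribosome production in melanoma and other tumours.

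Start sites of members on which the results below turn are shown here for this motif. Each line below gives 15 bases before and 15 bases from the RefSeq transcription start (GRCh38.p14), 5′ to 3′ on the gene's own strand, and capitals mark the pyrimidine tract, defined as a C followed by at least 4 C or T and beginning within 5 bases of the start. RPL36A (chrX:101390996-101391025, plus strand), RPL38 (chr17:74203663-74203692, plus), RPLP1 (chr15:69452803-69452832, plus) and RPS29 (chr14:49598696-49598725, minus) are shown as members with large falls in SKMel28. RPS24 (chr10:78033848-78033877, plus) and RPL3 (chr22:39319609-39319638, minus) are shown as the largest rises there. RPL22 (chr1:6199581-6199610, minus) and RPL21 (chr13:27251543-27251572, plus) fell in A375, and RPS27L (chr15:63157463-63157492, minus) rose there.
RPL36A: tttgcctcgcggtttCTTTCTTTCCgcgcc
RPL38: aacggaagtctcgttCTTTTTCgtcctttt
RPLP1: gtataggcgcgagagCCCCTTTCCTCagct
RPS29: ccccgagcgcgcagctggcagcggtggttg
RPS24: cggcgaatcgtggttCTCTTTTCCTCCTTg
RPL3: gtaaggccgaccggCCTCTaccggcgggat
RPL22: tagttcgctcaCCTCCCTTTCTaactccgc
RPL21: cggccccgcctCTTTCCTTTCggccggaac
RPS27L: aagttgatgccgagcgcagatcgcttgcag
The RefSeq starts listed for RPS29 and RPS27L have no such tract in this window, and the others shown do, among genes that fell and genes that rose alike. Over the whole family, 57 of 79 listed starts (72.2%), belonging to 64 members, had the tract, against 21.1% of 35116 starts of all genes. The letters CTTT lay at the start in 50.6% of the members' starts and 6.34% of all starts. The 6 letters CCGGAA on either strand, whose reverse complement can overlap the end of the tract, were in 53.2% of the members' windows of 250 bases before to 50 after the start, against 17.2% of all windows. Mitochondrial ribosomal protein genes had the tract in 20.2% of starts and CCGGAA in 53.6%. A match describes these letters in this window only.

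The summed level of the family was lower in resistant SKMel28 than in sensitive SKMel28, with a smaller difference in A375. In SKMel28 the 83 genes took 4.23%, 4.38% and 4.57% of gene reads in the 3 resistant libraries, against 5.67%, 5.85% and 5.74% in the sensitive libraries, or 4.39 ± 0.169% and 5.75 ± 0.0923% (SD, n = 3 each). In A375 they took 8.27%, 8.17% and 7.91% in resistant cells, against 8.36%, 8.32% and 8.39% in sensitive cells, or 8.12 ± 0.188% and 8.36 ± 0.0379% (SD, n = 3 each). As a share of gene reads the groups did not overlap in either line, the gap in A375 was narrow, and every A375 library stood above every SKMel28 library. No p is given for the summed share. The large subunit took 2.76 ± 0.113% in resistant and 3.60 ± 0.0535% in sensitive SKMel28, and the small subunit 1.63 ± 0.0564% and 2.15 ± 0.0395%, so both subunits were lower. In bulk samples, fewer cells with a high level and less RNA per cell cannot be told apart.

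Other measures moved with this share. Reads of mitochondrially encoded genes took 6.95 ± 0.163% of gene reads in resistant and 4.51 ± 0.14% in sensitive SKMel28. Leaving those genes out of the total, the members' share was 4.72 ± 0.189% in resistant and 6.02 ± 0.0891% in sensitive SKMel28. Reads that aligned to more than 1 place, and were not counted for any gene, made up 2.26 ± 0.179% of counted reads in resistant SKMel28 and 4.23 ± 0.232% in sensitive SKMel28, against 4.65 ± 0.126% and 4.78 ± 0.362% in the same groups of A375. The part of such reads that belongs to ribosomal proteins was not tested. GENCODE 29 lists 1133 processed or other pseudogenes of 76 members, so counts of uniquely aligned reads can understate them. Taken over all counted reads, unassigned ones included, the share was 3.72 ± 0.146% in resistant and 4.71 ± 0.0973% in sensitive SKMel28.

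**Figure D1:**
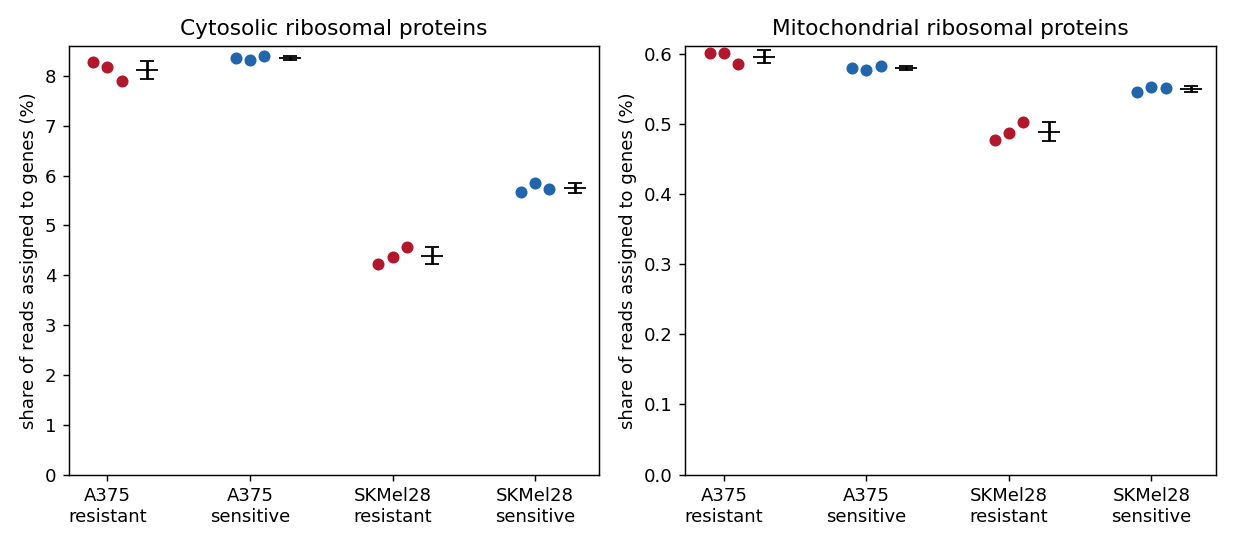
Share of reads assigned to genes (%, axes from 0) taken by the 83 cytosolic ribosomal protein genes (left) and 77 mitochondrial ribosomal protein genes (right), 1 point per library, with the mean and SD of the 3 libraries in black beside them. The cytosolic share lies at 4.23% to 4.57% in resistant and 5.67% to 5.85% in sensitive SKMel28, and near 8% in all A375 libraries.

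Gene by gene, resistant SKMel28 cells had lower levels of 59 of the 79 members and higher levels of 8, while 12 were not called. Over all genes tested in that line, 35.8% were called lower and 34.2% higher, and 70.0% were called in either direction. Members stood at 74.7% lower and 10.1% higher, with a median log2 fold change of -0.40, against -0.01 over all genes tested and -0.03 over the 2383 genes at 100 CPM or more, of which 43.8% were called lower. The fall reached both subunits, with 25 of 32 small-subunit members lower and 3 higher, and 34 of 47 large-subunit members lower and 5 higher. It was at least 0.5 on the log2 scale for 35 members and at least 1 for 6.

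The largest falls in SKMel28 were in small proteins of both subunits. RPL36A, a large-subunit protein near the exit site for transfer RNA, had 30.7, 31.4 and 32.8 CPM in resistant SKMel28, against 127, 131 and 115 CPM in sensitive SKMel28. The groups stood far apart, and the log2 fold change was -1.97 ± 0.06 (SE), adjusted p = 6.26e-25. In the annotation RPL36A overlaps the readthrough gene RPL36A-HNRNPH2, which has its own row in the counts, so reads shared by both may have been left uncounted. RPS29, a zinc-binding protein of the small subunit's head, had 134, 132 and 128 CPM in resistant SKMel28, against 374, 423 and 372 CPM in sensitive SKMel28, a log2 fold change of -1.57 ± 0.04 (SE), adjusted p = 4.75e-31. RPL37, a zinc-binding protein of the large subunit, had 320.1, 344 and 384 CPM in resistant SKMel28, against 925, 964 and 881 CPM in sensitive SKMel28, with a change of -1.40 ± 0.06 (SE), adjusted p = 1.72e-12. All resistant libraries lay below all sensitive ones for these 3 genes, and none of the 3 was called in A375.

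RPL38, which in the mouse is known from the Tail-short mutation and its skeletal patterning defects, had 200.1, 219 and 233 CPM in resistant SKMel28, against 469, 496 and 472 CPM in sensitive SKMel28, with a log2 fold change of -1.14 ± 0.04 (SE), adjusted p = 2.7e-27. RPL35, which sits by the exit of the peptide tunnel, had 451, 492 and 530.2 CPM in resistant SKMel28, against 1002, 1068 and 1048 CPM in sensitive SKMel28, with a change of -1.08 ± 0.05 (SE), adjusted p = 4.33e-15. Both were far below their level in sensitive cells in every resistant library. The acidic proteins RPLP1 and RPLP2, which form the flexible stalk that recruits elongation factors, fell together. RPLP1 had 777, 809 and 836 CPM in resistant SKMel28, against 1563, 1609 and 1660.2 CPM in sensitive SKMel28, and its log2 fold change was -1.0 ± 0.03 (SE), adjusted p = 1.91e-28. RPLP2 had 383, 399 and 438 CPM in resistant SKMel28, against 820.5, 804 and 854 CPM in sensitive SKMel28, with a change of -1.02 ± 0.04 (SE), adjusted p = 1.6e-18. RPLP0, the base of the same stalk, changed less, with a log2 fold change of -0.31 ± 0.03 (SE), adjusted p = 4.54e-12.

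Other well-known members followed. RPS3, at the entry of the mRNA channel and also known for a role in DNA repair, had 409.6, 417 and 441 CPM in resistant SKMel28, against 750.5, 804 and 775 CPM in sensitive SKMel28, a log2 fold change of -0.88 ± 0.03 (SE), adjusted p = 2.22e-25. RPS19, the gene most often mutated in Diamond-Blackfan anaemia, changed by -0.52 ± 0.03 (SE), adjusted p = 1.23e-17. RPL10, which joins late in the assembly of the large subunit, changed by -0.29 ± 0.03 (SE), adjusted p = 2.32e-10. RPL11, which with RPL5 and the 5S ribosomal RNA binds the p53 regulator MDM2, had 764, 798 and 863 CPM in resistant SKMel28, against 1223, 1251 and 1252 CPM in sensitive SKMel28, a change of -0.62 ± 0.03 (SE), adjusted p = 5.75e-20. RPL5 itself was not called, with a log2 fold change of -0.01 ± 0.03 (SE), adjusted p = 0.883, and its groups overlapped. RPS6, the substrate of the S6 kinases, was likewise not called, at -0.02 ± 0.03 (SE), adjusted p = 0.647.

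The 8 members called higher in resistant SKMel28 included RPS24, RPL3, RPL15, RPS27L, RPL4, RPL14 and RPL22. RPS24, a small-subunit protein also mutated in Diamond-Blackfan anaemia, had 536, 553 and 578 CPM in resistant SKMel28, against 368, 362 and 359.8 CPM in sensitive SKMel28. All resistant libraries lay above all sensitive ones, and the log2 fold change was 0.61 ± 0.03 (SE), adjusted p = 2.13e-20. RPL3, which reaches towards the peptidyl transferase centre, had 1649.7, 1692 and 1749 CPM in resistant SKMel28, against 1211, 1257 and 1259 CPM in sensitive SKMel28, with a change of 0.45 ± 0.03 (SE), adjusted p = 7.15e-17. Smaller rises were those of RPL15 at 0.22 ± 0.03, RPS27L at 0.20 ± 0.05, RPL4 at 0.15 ± 0.03, RPL14 at 0.14 ± 0.04 and RPL22 at 0.12 ± 0.04 on the log2 scale.

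**Figure D2:**
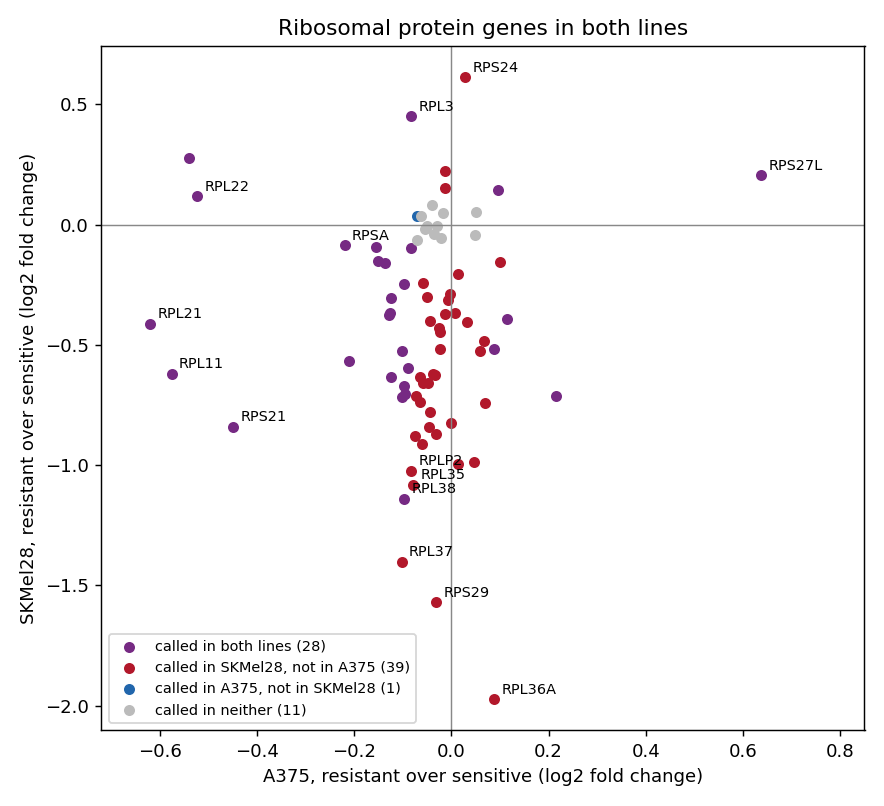
Log2 fold change of resistant over sensitive cells in A375 (x axis) and SKMel28 (y axis) for the 79 tested members, 1 point per gene, coloured by the line in which it was called. The points spread from -1.97 to 0.61 in SKMel28, mostly below 0, and from -0.62 to 0.64 in A375, where most lie close to 0.

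In A375 few members changed by much. Of 79, 24 were called lower and 5 higher in resistant cells, against 26.3% lower and 25.0% higher among all genes tested, of which 51.3% were called in all. The members' shares were 30.4% lower and 6.33% higher, and their median log2 fold change was -0.05, against 0.00 over all genes. The falls were at least 0.25 on the log2 scale for 5 members and the rises for 1. The count moves with single libraries. Without resistant replicate 3 it was 10 lower and 13 higher, without resistant replicate 2 it was 14 lower, and without sensitive replicate 2 or 3 it was 2 higher. Scaling by DESeq2's size factors gave 14 lower and 10 higher.

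Those falls included RPL21, RPL11, RPL22 and RPS21. RPL21, a large-subunit protein, had 483, 486 and 472 CPM in resistant A375, against 743, 747 and 724 CPM in sensitive A375, a log2 fold change of -0.62 ± 0.03 (SE), adjusted p = 1.9e-20. RPL11 had 677, 665 and 649.5 CPM in resistant A375, against 1021, 976 and 970.1 CPM in sensitive A375, with a change of -0.58 ± 0.03 (SE), adjusted p = 2.51e-18. For both, every resistant library lay below every sensitive one by a wide margin. RPL22, which is dispensable for most translation and in the mouse is needed for T cell development, had 291, 286 and 273 CPM in resistant A375, against 408, 416 and 397 CPM in sensitive A375, a change of -0.52 ± 0.04 (SE), adjusted p = 1.95e-16. RPS21, a small-subunit protein, had 785, 778 and 692 CPM in resistant A375, against 1008, 1028 and 1042 CPM in sensitive A375, a change of -0.45 ± 0.04 (SE), adjusted p = 2.04e-13. A smaller fall was that of RPSA, the small-subunit protein also described as a laminin receptor, which had 1778, 1749.9 and 1709 CPM in resistant A375, against 1987, 2051 and 2059.7 CPM in sensitive A375, a change of -0.22 ± 0.03 (SE), adjusted p = 7.81e-08.

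The 5 members called higher in resistant A375 were RPS27L, RPL39L, RPL39, RPL14 and RPS16. RPS27L, a paralog of RPS27 and a known p53 target, had 196, 199 and 185 CPM in resistant A375, against 133, 119 and 120.4 CPM in sensitive A375. The groups did not overlap, and its log2 fold change of 0.64 ± 0.05 (SE), adjusted p = 2.43e-13, was the only rise called under every alternative processing tried. Its parent RPS27 fell, at -0.12 ± 0.03 (SE), adjusted p = 0.00212, with 1166, 1132 and 1057 CPM in resistant A375, against 1229.6, 1197 and 1231 CPM in sensitive A375. RPL39L, a copy of RPL39 known from the testis and tumours, stayed at a low level, with 12, 12.7 and 10.1 CPM in resistant A375, against 10.2, 9.94 and 9.71 CPM in sensitive A375, and its groups overlapped. Its change was 0.22 ± 0.09 (SE), adjusted p = 0.0362. RPL39, which lines the peptide tunnel, changed by 0.11 ± 0.04, RPL14 by 0.10 ± 0.04 and RPS16 by 0.09 ± 0.04 on the log2 scale.

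The larger falls in A375 lie on 3 chromosome arms whose other genes were lower too. RPL11 and RPL22 are on 1p, RPL21 is on 13q and RPS21 on 20q, where the median log2 fold change of all genes at 2 CPM or more was -0.53, -0.44 and -0.36. The 20 nearest tested genes had medians of -0.71 around RPL11, -0.49 around RPL22, -0.33 around RPL21 and -0.37 around RPS21, close to the changes of the members themselves apart from RPL21. RPL5, also on 1p, was not called, at -0.05 ± 0.03 (SE), adjusted p = 0.21, and the median of its 20 neighbours was -0.04. Of the 73 members on other arms, 19 were called lower and 5 higher, with a median of -0.04 and no fall beyond -0.22. Over all genes tested in A375, on any arm, 26.3% were called lower and 25.0% higher. The number of gene copies was not measured here.

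In SKMel28 most members lay below their neighbourhood. Of 79 members, 68 lay below the median of their 20 nearest genes, with a median of -0.39 for member minus neighbours on the log2 scale, and 60 of 79 did so in A375, where that median was -0.06. On the 12 arms with a median beyond 0.25 in either direction in SKMel28, 12 of 16 members were called lower and 1 higher, with a median of -0.47 beside a median of 0.28 for their neighbours. On other arms, 47 of 63 were lower and 7 higher, with a median of -0.40. Over all genes tested in SKMel28, on any arm, 35.8% were called lower and 34.2% higher. RPL37 on 5p fell by 1.40 on the log2 scale while its neighbours had a median of 0.30, and RPS29 on 14q fell by 1.57 beside a neighbour median of 0.24. The medians of the whole arms were -0.33 for 5p, the other way from the neighbours of RPL37, and 0.14 for 14q. Around RPL36A on Xq the neighbours were lower as well, with a median of -0.71, while the whole arm stood at -0.05. RPS24 on 10q rose by 0.61, where its neighbours had a median of 0.26 and the whole arm 0.34.

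**Figure D3:**
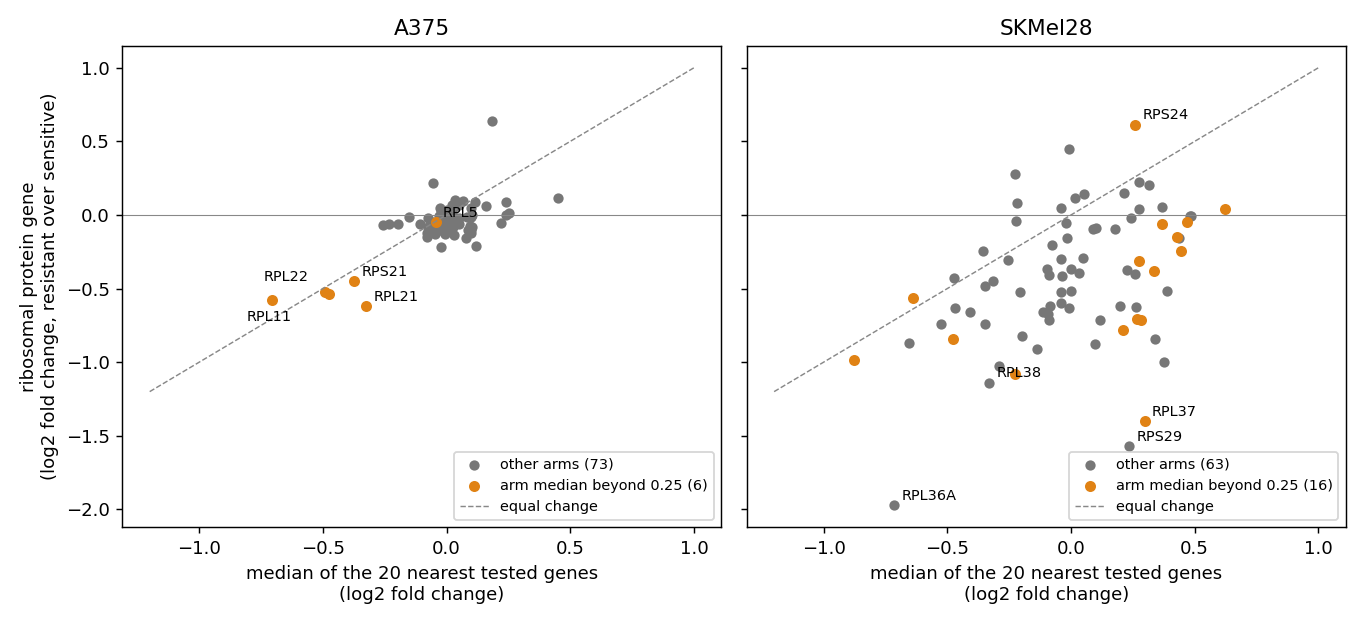
Log2 fold change of each member (y axis) against the median log2 fold change of its 20 nearest tested genes (x axis), resistant over sensitive, in A375 (left) and SKMel28 (right), with members on arms whose median lies beyond 0.25 in orange and a dashed line at equal change. In A375 5 of the 6 orange points lie at -0.45 to -0.62, beside neighbour medians of -0.33 to -0.71, and in SKMel28 68 of 79 points lie below it.

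Members with short coding sequences fell more in SKMel28. Those with a coding length of 300 nucleotides or less had a median log2 fold change of -0.71 (11 members, 10 lower and 1 higher), those of 301 to 500 nucleotides -0.46 (38 members), those of 501 to 900 nucleotides -0.15 (27 members) and the 3 longer ones 0.15. Other genes at 100 CPM or more moved the same way to a smaller extent, with medians of -0.36 over 61 genes, -0.16 over 164, -0.02 over 395 and 0.01 over 570 in the same length classes. In the shortest class 44 of these 61 other genes (72.1%) were called lower and 10 higher, against 35.8% and 34.2% of all genes tested. Across the 79 members, Spearman's rho between coding length and the SKMel28 change was 0.41 and Pearson's r on log2 length 0.41, a description over genes that share libraries and are not replicates. In A375 rho was -0.18, and the members' medians in the 4 classes ran from -0.03 to -0.08. With an offset that removes the trend of other genes with coding length, added after the data had been seen, 56 members were lower in SKMel28 and 17 were higher, with a median of -0.27. What makes short genes lower in these libraries was not tested. The number of pseudogenes of a member showed little relation to its SKMel28 change, with a rho of 0.09.

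**Figure D4:**
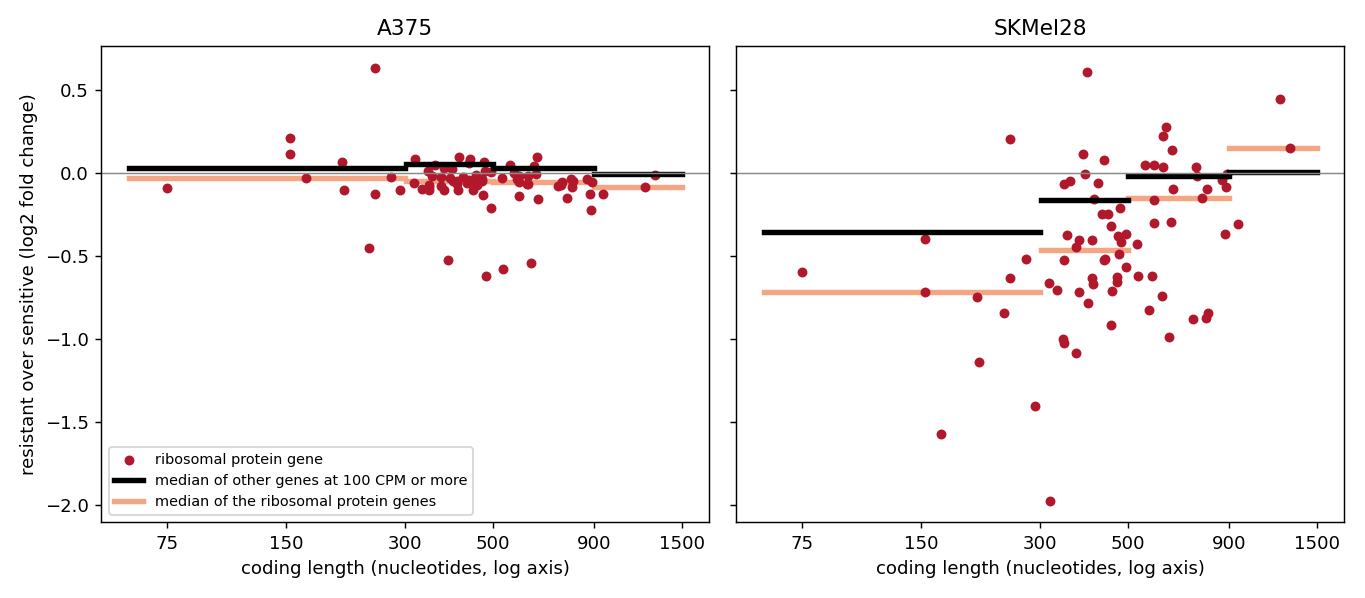
Log2 fold change of resistant over sensitive cells (y axis) against coding length in nucleotides (x axis, log scale) for the 79 members in A375 (left) and SKMel28 (right), with the members' median (orange lines) and the median of other genes at 100 CPM or more (black lines) in 4 length classes. In SKMel28 the members' medians stand at -0.71, -0.46, -0.15 and 0.15 from the shortest to the longest class, and the other genes' at -0.36, -0.16, -0.02 and 0.01.

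Falls in SKMel28 were found among members with and without the start tract. Among members with a single RefSeq start, 38 of 45 with the tract were called lower and 5 higher, with a median log2 fold change of -0.41, and 6 of 8 without it were lower and 1 higher, with a median of -0.57. In A375 the same groups had 17 of 45 lower and 3 higher, and 2 of 8 lower and 1 higher. Over all genes tested, 35.8% were called lower and 34.2% higher in SKMel28, and 26.3% and 25.0% in A375. Only 8 members make up the group without the tract, and the difference between the groups was not tested.

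The change differed between the lines for most members. In the test of the A375 change minus the SKMel28 change, 53 members had a positive difference and 10 a negative one, where 31.4% and 32.4% of all genes tested did and 63.8% were called in all. The largest differences were in RPL36A at 2.06 ± 0.07 (SE), adjusted p = 6.51e-22, RPS29 at 1.54 ± 0.06 (SE), adjusted p = 1.3e-25, RPL37 at 1.30 ± 0.08 (SE), adjusted p = 5.3e-10 and RPL38 at 1.04 ± 0.05 (SE), adjusted p = 1.06e-20. For the first 3 the A375 change was not called, and RPL38 changed there by -0.10 ± 0.04. On the negative side stood RPL22 at -0.64 ± 0.05 (SE), adjusted p = 8.26e-15, RPS24 at -0.58 ± 0.05 (SE), adjusted p = 1.09e-14 and RPL3 at -0.53 ± 0.04 (SE), adjusted p = 2.79e-14.

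RPL22 and RPL3 were among 3 members (3.80%) called lower in A375 and higher in SKMel28, as were 9.86% of all genes tested. The SKMel28 rise of RPL22 lost its call without SKMel28 resistant replicate 3 (adjusted p = 0.0519). RPL39, RPL39L and RPS16 (3.80%, against 10.2%) were higher in A375 and lower in SKMel28. RPL3 had 1733, 1664 and 1648 CPM in resistant A375, against 1766, 1784 and 1794 CPM in sensitive A375, a log2 fold change of -0.08 ± 0.03 (SE), adjusted p = 0.0231. That call was lost with DESeq2's size factors, library size alone, no filter, DESeq2 itself and the length offset. It was also lost without any 1 resistant A375 library and without sensitive A375 replicate 2 or 3. RPL39 had 235, 225 and 243 CPM in resistant SKMel28, against 302, 323 and 300.1 CPM in sensitive SKMel28. RPL39L had 26.4, 29.5 and 29.3 CPM in resistant SKMel28, against 45.1, 45.7 and 49.1 CPM in sensitive SKMel28, and its log2 fold change was -0.71 ± 0.07 (SE), adjusted p = 3.08e-12. RPS16, whose tail touches the transfer RNA in the peptidyl site, had 512, 539 and 565 CPM in resistant SKMel28, against 738, 796 and 781 CPM in sensitive SKMel28. The groups of each of these genes did not overlap in SKMel28. With the length offset described above, RPL39 was called in neither line, at a log2 fold change of 0.00 in A375 (adjusted p = 0.914) and -0.04 in SKMel28 (adjusted p = 0.291), and its difference between the lines was not called either (0.04, adjusted p = 0.412). In A375 the rise of RPL39L also lost its call under that offset (adjusted p = 0.307), with the line fitted alone (adjusted p = 0.0618) and without any 1 A375 library other than resistant replicate 3 (adjusted p = 0.0549 to 0.12). The rise of RPS16 there lost it under the offset and without the genes of shifted arms (adjusted p = 0.155 in both), and without any 1 sensitive library (adjusted p = 0.0579 to 0.132). The falls of RPL39L and RPS16 in SKMel28 and their differences between the lines were called under every alternative tried.

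In 20 members (25.3%) the level was lower in resistant cells of both lines, as in 9.83% of all genes tested, with RPL11, RPL21 and RPS21 the largest in A375. Of the 20, only RPL11, RPL12, RPL21, RPLP0, RPS21 and RPS7 kept both calls under every alternative tried. RPL27, RPL27A, RPL31, RPL35A, RPL38, RPL41, RPS26 and RPS3A lost the A375 call with DESeq2's size factors, library size alone, no filter and DESeq2 itself. RPL10A and RPSA lost the SKMel28 call under several alternatives. For RPL11 the difference between the lines was not called, at 0.04 ± 0.05 (SE), adjusted p = 0.449, and RPS21 fell more in SKMel28, with 255, 266 and 275 CPM in resistant SKMel28, against 463, 496 and 467 CPM in sensitive SKMel28. Higher in both were RPL14 and RPS27L (2.53%, against 8.65% of all genes). The A375 rise of RPL14 lost its call without the genes of shifted arms and without sensitive replicate 2 or 3 (adjusted p up to 0.11). In 36 members (45.6%, against 15.8%) the level was lower in SKMel28 with no call in A375, and 11 members (13.9%, against 17.2%) were called in neither line. Among those 11 were RPL5 and RPS6. RPL17 overlaps a readthrough gene, RPL17-C18orf32, and RPS10 another, RPS10-NUDT3, so their counts are uncertain.

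Levels differed widely among members although the ribosome holds nearly all of them in equal number. Per kilobase of coding sequence, RPL41, which encodes the shortest protein of the family, was highest in both lines, at 9952 CPM in resistant and 10590.0 CPM in sensitive A375 and at 4108 CPM in resistant and 6207 CPM in sensitive SKMel28. RPLP1 came next in both, followed by RPS27 in A375 and RPL37A in SKMel28. The lowest 3 in A375 were RPL17, RPS10 and RPL39L, the last at 75.6 CPM per kilobase in resistant and 65.1 in sensitive cells. In SKMel28 the lowest 3 were RPS27L, RPL39L and RPL36A, the last at 99.5 CPM per kilobase in resistant and 390.6 in sensitive cells. Coding length leaves out the untranslated ends, so very short genes such as RPL41 are overstated on this scale.

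Among sensitive cells, A375 had more ribosomal protein mRNA than SKMel28. Of 79 members, 64 were higher and 10 lower in sensitive A375, where 42.4% of all genes tested were higher, 40.5% lower and 82.9% called, and the median log2 difference was 0.41. RPS24, at 1.30 ± 0.03, RPS6, at 1.18 ± 0.03, and RPSA, at 1.14 ± 0.03, were among the members that stood highest in A375. RPL39L stood furthest the other way, at -2.22 ± 0.08 (SE), adjusted p = 5.81e-28. RPL5 was not called, at 0.00 ± 0.03 (SE), adjusted p = 0.906. The lines come from different tumours, so this compares 1 line with another.

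Ribosomal proteins whose symbols the rule does not reach were mixed. Of 7 tested, 3 were called higher (42.9%) and none lower in resistant A375, and 2 higher (28.6%) and 4 lower (57.1%) in resistant SKMel28, with a median of -0.35 there. Over all genes tested, 25.0% were higher and 26.3% lower in A375, and 34.2% and 35.8% in SKMel28. FAU, which encodes a small-subunit protein fused to a ubiquitin-like sequence, changed by -0.47 ± 0.04 in SKMel28. GNB2L1, the older symbol of the small-subunit scaffold RACK1, rose by 0.35 ± 0.03 (SE), adjusted p = 5.89e-13. RPL22L1, the paralog of RPL22, had 242, 238 and 236 CPM in resistant A375, against 137, 132 and 129 CPM in sensitive A375, a log2 fold change of 0.85 ± 0.04 (SE), adjusted p = 3.95e-22, opposite to RPL22 in the same cells. In SKMel28 it had 18.6, 18.2 and 19.6 CPM in resistant SKMel28, against 25.4, 22.8 and 23.5 CPM in sensitive SKMel28, a change of -0.35 ± 0.06 (SE), adjusted p = 5.24e-07, again opposite to RPL22, while the arm median of 3q, which holds RPL22L1, was 0.28.

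Other mRNAs known to carry the TOP motif were split between the directions in SKMel28. Of 15, 8 were called higher and 6 lower there, with a median of 0.11. In A375 1 was higher and 5 lower, with a median of -0.06. Among all genes tested, 34.2% were called higher and 35.8% lower in SKMel28, and 25.0% and 26.3% in A375. EEF2, the elongation factor that moves the ribosome along the mRNA, had 1829.9, 1921 and 1948 CPM in resistant SKMel28, against 2682, 2829.8 and 2888 CPM in sensitive SKMel28, a change of -0.56 ± 0.03 (SE), adjusted p = 1.13e-19. EIF3E, a subunit of initiation factor 3, had 458, 462 and 476 CPM in resistant SKMel28, against 283, 276 and 281 CPM in sensitive SKMel28, a change of 0.73 ± 0.03 (SE), adjusted p = 9.64e-24, and PABPC1, the poly(A)-binding protein, rose by 0.40 ± 0.03. In A375 TPT1 changed by -0.43 ± 0.03 (SE), adjusted p = 1.22e-15, HNRNPA1 by -0.30 ± 0.03 (SE), adjusted p = 3.21e-11 and EIF4B by -0.28 ± 0.03 (SE), adjusted p = 1.44e-10. TPT1 lies on 13q, with an arm median of -0.44 in A375, and EIF3E and PABPC1 on 8q, with an arm median of 0.40 in SKMel28.

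Genes that host small nucleolar RNAs, the guides for ribosomal RNA modification, were mostly lower in resistant cells. Of 11, 9 were called lower (81.8%, against 26.3% of all genes tested) and 1 higher in resistant A375, with a median of -0.27. In resistant SKMel28 8 were lower (72.7%, against 35.8%), none higher and 3 not called, with a median of -0.99. GAS5 had 96.8, 94.0 and 96.9 CPM in resistant A375, against 135, 132 and 134 CPM in sensitive A375, a log2 fold change of -0.48 ± 0.04 (SE), adjusted p = 6.55e-14. In SKMel28 it had 42.5, 41.3 and 43.3 CPM in resistant SKMel28, against 104, 106 and 102 CPM in sensitive SKMel28, a change of -1.30 ± 0.04 (SE), adjusted p = 3.22e-28. SNHG8 and SNHG5 changed by -1.13 ± 0.07 and -1.12 ± 0.06 in SKMel28, and SNHG1 and ZFAS1 by -0.67 ± 0.05 and -0.60 ± 0.04 in A375. ZFAS1 lies on 20q, whose arm median in A375 was -0.36, and SNHG5 on 6q, whose median in SKMel28 was 0.29. Many of these transcripts begin with a pyrimidine tract, as did 6 of the 9 listed starts.

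Factors that build the ribosome were called in both directions, more of them lower. Of 43 biogenesis factors, 12 were called higher and 22 lower in resistant SKMel28, with a median of -0.11, and 11 higher and 15 lower in resistant A375, with a median of -0.02. In SKMel28 that is 27.9% higher and 51.2% lower, against 34.2% and 35.8% of all genes tested. In A375 it is 25.6% and 34.9%, against 25.0% and 26.3%. The nucleolar proteins NPM1, NCL and NOLC1 rose in SKMel28, where NPM1 had 2539, 2587 and 2751 CPM in resistant SKMel28, against 1547, 1587 and 1524 CPM in sensitive SKMel28, a change of 0.76 ± 0.03 (SE), adjusted p = 1.59e-24. NCL had 2232, 2187 and 2268 CPM in resistant SKMel28, against 1378, 1440.2 and 1399.6 CPM in sensitive SKMel28, a change of 0.66 ± 0.03 (SE), adjusted p = 2.96e-23, and NOLC1 changed by 0.65 ± 0.03. In A375 MRTO4, GNL2 and NOP56 fell, with changes of -0.52 ± 0.04, -0.51 ± 0.04 and -0.46 ± 0.03 on the log2 scale. MRTO4 and GNL2 lie on 1p and NOP56 on 20p, where the arm medians in A375 were -0.53 and -0.47, close to these changes. NPM1 lies on 5q and NOLC1 on 10q, both with an arm median of 0.34 in SKMel28. Of 14 RNA polymerase I genes, 3 were higher and 7 lower in SKMel28 and 4 higher and 4 lower in A375, and POLR1B, a core subunit, changed by -0.44 ± 0.05 in SKMel28 and 0.16 ± 0.04 in A375.

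Among 11 chaperones and importins of ribosomal proteins, 3 were called higher and 6 lower in resistant SKMel28 and 1 higher and 2 lower in resistant A375. These shares were 27.3% and 54.5% in SKMel28, against 34.2% and 35.8% of all genes tested. For A375 they were 9.09% and 18.2%, against 25.0% and 26.3%. TSR2, the chaperone of RPS26, had 32, 33.7 and 35.4 CPM in resistant SKMel28, against 68.7, 67.3 and 72.1 CPM in sensitive SKMel28, a change of -1.04 ± 0.06 (SE), adjusted p = 1.24e-20. BCCIP, whose yeast counterpart Bcp1 is a chaperone of Rpl23, had 110.5, 107 and 113 CPM in resistant SKMel28, against 59.5, 56.0 and 52.1 CPM in sensitive SKMel28, a change of 0.98 ± 0.05 (SE), adjusted p = 5.34e-23. IPO5, which imports ribosomal proteins into the nucleus, changed by 0.44 ± 0.04 (SE), adjusted p = 1.9e-14 in SKMel28 and by -0.72 ± 0.04 (SE), adjusted p = 2.21e-21 in A375. Arm medians were -0.44 in A375 for 13q, which holds IPO5, and -0.71 and 0.34 in SKMel28 for Xp and 10q, which hold TSR2 and BCCIP.

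Of 16 genes that control TOP mRNA translation and growth, 5 were called higher and 8 lower in resistant SKMel28. In resistant A375 5 were higher and 3 lower. The shares of all genes tested were 34.2% higher and 35.8% lower in SKMel28, and 25.0% and 26.3% in A375. MYC, the transcription factor known to raise ribosomal protein genes, had 35.4, 36.8 and 30.7 CPM in resistant A375, against 18.3, 18.5 and 20.3 CPM in sensitive A375, a log2 fold change of 0.85 ± 0.06 (SE), adjusted p = 8.55e-17. In SKMel28 it had 135, 139 and 134 CPM in resistant SKMel28, against 193, 191 and 196 CPM in sensitive SKMel28, a change of -0.51 ± 0.04 (SE), adjusted p = 1.02e-13. MAX, its partner, moved the same ways, by 0.36 ± 0.05 in A375 and -0.54 ± 0.05 in SKMel28. LARP1 changed by 0.12 ± 0.03 (SE), adjusted p = 0.00336 in A375 and by 0.38 ± 0.03 (SE), adjusted p = 1.89e-13 in SKMel28, and MTOR by -0.61 ± 0.04 (SE), adjusted p = 9.5e-17 in A375 and 0.13 ± 0.04 (SE), adjusted p = 0.00266 in SKMel28. MTOR lies on 1p, with an arm median of -0.53 in A375, and in SKMel28 the medians were 0.34 for 5q, which holds LARP1, and 0.40 for 8q, which holds MYC. Protein levels and phosphorylation were not measured.

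The 77 mitochondrial ribosomal protein genes, which serve the ribosome of the mitochondrion, took 0.489 ± 0.0135% of gene reads in resistant and 0.55 ± 0.00372% in sensitive SKMel28 (SD, n = 3 each). In SKMel28 43 were called lower and 18 higher, with a median of -0.13, and in A375 12 were lower and 26 higher, with a median of 0.03. The shares lower and higher were 55.8% and 23.4% in SKMel28, against 35.8% and 34.2% of all genes tested. For A375 they were 15.6% and 33.8%, against 26.3% and 25.0%. MRPS24, a small-subunit protein, had 5.65, 6.68 and 6.73 CPM in resistant SKMel28, against 24.2, 28.8 and 29.5 CPM in sensitive SKMel28, a change of -2.11 ± 0.10 (SE), adjusted p = 7.59e-23. MRPL44 rose, with 181, 178 and 179 CPM in resistant SKMel28, against 91.8, 90.4 and 92.2 CPM in sensitive SKMel28, a change of 0.97 ± 0.04 (SE), adjusted p = 2.01e-24. In A375 MRPS15, MRPL37 and MRPL20 fell, with changes of -0.56 ± 0.05, -0.54 ± 0.04 and -0.45 ± 0.05 on the log2 scale. All 3 lie on 1p, where the arm median in A375 was -0.53, and MRPS24 lies on 7p, whose median in SKMel28 was -0.39. The part of these arm-wide changes in the results of the genes named here and in the lists above was not tested.

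**Figure D5:**
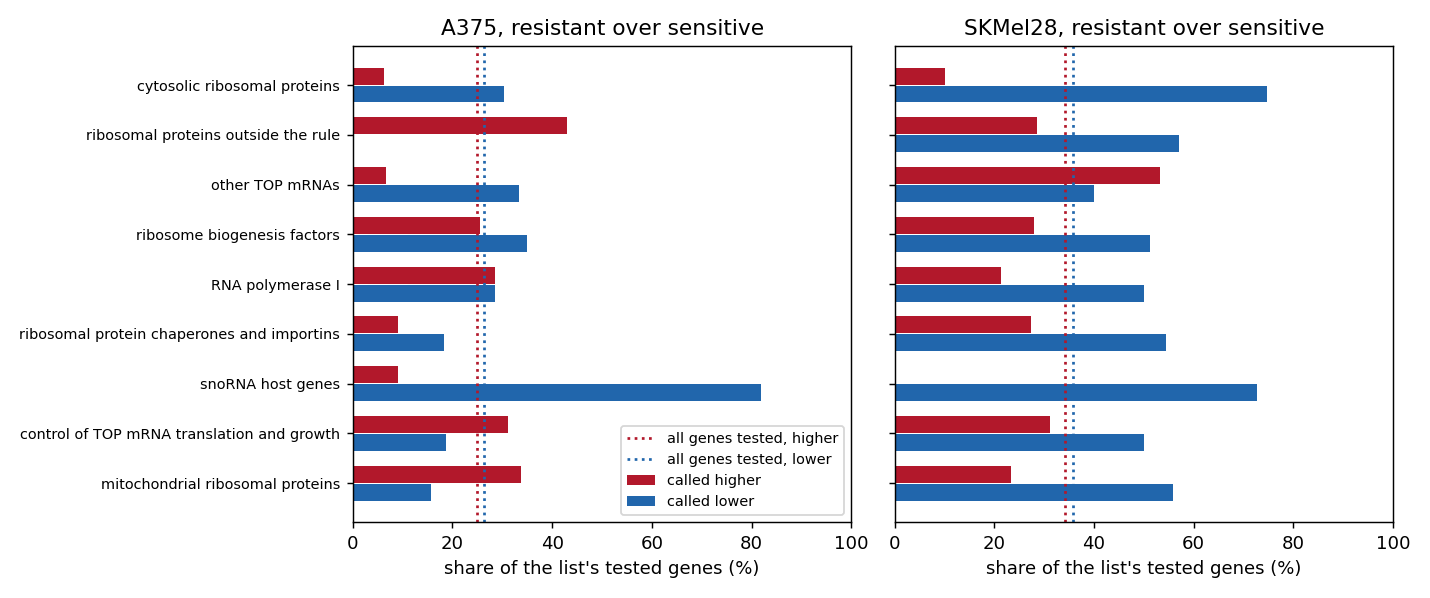
Share of each list's tested genes (%) called higher (red) or lower (blue) in resistant over sensitive cells of A375 (left) and SKMel28 (right), with dotted lines at the shares over all 15506 genes tested. In SKMel28 cytosolic ribosomal proteins stand at 74.7% lower and 10.1% higher and mitochondrial ones at 55.8% and 23.4%.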

How the data were processed

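Poly(A)-selected RNA of 12 libraries was sequenced in 150-base pairs, per the labels' protocols. Each library has 1 deposited file, which holds a raw read count for every gene symbol. HISAT2, StringTie and the build GRCh38.p12 are named in the submitters' processing notes, whereas STAR and unstranded counting appear in the deposited files' own names, and which of them made the counts is not settled. Without strand, reads of a gene and an antisense partner cannot be told apart. Between 15.1% and 19.5% of counted reads were assigned to no gene and stayed out of library sizes. The members and lists were chosen with earlier results of these data known. Counts were filtered (filterByExpr), scaled (TMM) and fitted with edgeR 4.0.16 in R 4.3.3 as 1 model of 4 group means over 12 libraries, with 8 residual degrees of freedom, robust quasi-likelihood tests and Benjamini-Hochberg adjustment over all 15506 genes tested. DESeq2 1.42.0 was an alternative, as were other scalings and filters, leaving out each library, a replicate block and, added after the data had been seen, a length offset. The biological coefficient of variation was 4.20%. Replicates differed by more than sampling noise (chi-square per degree of freedom 2.77 to 7.14), so none was counted as a repeat. Positions and coding lengths came from GENCODE 29, start sequences from RefSeq. Arms with at least 20 genes at 2 CPM or more were described. The steps were tested on simulated counts. Named genes are, per line, the 6 largest rises and falls among called members, the 4 largest differences in each direction, textbook members, the extremes of level per length, and up to 3 called genes of each companion list. Some genes that this rule names are not reported here. Intervals and floors are not used, and the precision of a value is given by the spread of 3 libraries.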

Additional observations from a re-analysis of the deposited data

Results flagged for a closer look

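The resistant-minus-sensitive change differed between the lines, by a test of the difference itself, for 63 members, with 53 differences above 0 and 10 below 0 (A375 minus SKMel28). Members stood at 67.1% and 12.7%, against 31.4% and 32.4% of all genes tested. Above 0 stood RPL36A at 2.06, RPS29 at 1.54, RPL37 at 1.30 and RPL38 at 1.04 on the log2 scale. Below 0 stood RPL22 at -0.64, RPS24 at -0.58 and RPL3 at -0.53. RPL22 lies on 1p, an arm with a median change of -0.53 in A375 and 0.00 in SKMel28. RPS24 lies on 10q, an arm with a median change of 0.04 in A375 and 0.34 in SKMel28. RPL36A, RPS29, RPL37 and RPL38 have coding lengths of 318, 168, 291 and 210.0 nucleotides. The part of either in the differences was not tested.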

How the results depend on the processing

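The counts in A375 depended on the processing. Against 5 members higher and 24 lower, DESeq2's size factors gave 10 and 14, library size alone 10 and 14, no filter 12 and 15, DESeq2's own test 10 and 13, leaving out genes of arms with shifted medians 2 higher, and the length offset 2 and 47. Leaving out 1 library gave 2 to 13 higher, the lowest without sensitive replicate 2 or 3 and the highest without resistant replicate 3, and 10 to 28 lower. In SKMel28 the count lower stayed within 1.5 times of 59 under every alternative, at 56 to 62 with 1 library left out, while the count higher, 7 to 11 with 1 library left out, was 17 with the length offset. Of the members called in SKMel28, 54 of 59 lower and 7 of 8 higher kept their call under every alternative, as did 10 of 24 lower and 1 of 5 higher in A375. Differences between lines numbered 53 to 54 above 0 and 7 to 12 below 0 with 1 library left out, and 21 below 0 with the length offset, under which RPL11 turned to -0.10 and RPL41 to -0.045. Sensitive A375 minus sensitive SKMel28 had 63 to 64 members higher and 10 to 11 lower with 1 library left out, and 6 lower without the shifted arms. Library size alone moved the median of all genes in that comparison to 0.18. RPL36A was called higher in A375, at 0.12, under DESeq2's size factors. Shifted arms left out here are the 16 with a median beyond 0.25 in resistant over sensitive cells of either line. Counts and summed shares without them cover fewer members, so they cannot be set directly against those of all members. The difference in the members' share of gene reads was -0.0622 percentage points in A375 without members of shifted arms and -0.317 to -0.134 with 1 library left out. In SKMel28 it was -0.987 over all counted reads, -0.966 without members of shifted arms and -1.45 to -1.28 with 1 library left out. The causes were not tested. Same-number libraries had correlations of -0.00240 to 0.0301 in A375 and 0.00767 to 0.0471 in SKMel28. Libraries of different numbers had -0.0221 to 0.0161 in A375 and -0.0422 to 0.0135 in SKMel28. These values do not settle if the numbers pair libraries, and no label says so. The replicate block gave 7 higher and 28 lower in A375, 9 and 59 in SKMel28, and 53 and 11 for the difference. Depth limits RPL39L most, at 9.71 CPM in its lowest library; the next lowest is RPL36A at 30.7 CPM.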
